A study of Mus musculus with 10 samples.

Results

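The thiazide-sensitive sodium chloride cotransporter NCC, encoded by Slc12a3, was examined together with 9 genes that control it or are found with it in the distal convoluted tubule of the kidney. The genes were chosen by name: the cotransporter Slc12a3, the kinases Wnk1, Wnk4, Stk39, Oxsr1 and Sgk1, the ubiquitin ligase parts Klhl3, Cul3 and Nedd4l, and the membrane protein gene Tmem52b. All 10 were present among the 13837 genes with deposited values, and all 10 were among the 13197 genes that were abundant enough to be tested. Messenger RNA was measured in whole kidneys of 3-month-old mice that differed at Rragc, the gene of the RagC GTPase, which signals amino acid supply to the growth-controlling kinase complex mTORC1. KI/+ mice (n = 5) carry the activating RagC S74N substitution on 1 allele in every cell of the body, whereas +/+ mice (n = 5) carry no edited allele. The substitution was introduced in embryos with Cas9, and the edited allele also holds silent changes. Each library was made from 1 mouse with a 3′ method, in which reads fall near the poly(A) end, and long transcripts therefore yield no more reads than short ones.

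NCC takes sodium and chloride up from the urine across the luminal membrane of the distal convoluted tubule, and is the target of thiazide diuretics. It is switched on by phosphorylation: the WNK kinases phosphorylate SPAK and OSR1 (products of Stk39 and Oxsr1), which in turn phosphorylate NCC. KLHL3, an adaptor of the CUL3 ubiquitin ligase, marks WNK kinases for degradation, and mutations of WNK1, WNK4, KLHL3 or CUL3 cause a familial form of hypertension with high plasma potassium. Aldosterone acts in this part of the nephron through its receptor and the kinase SGK1, which restrains the ubiquitin ligase NEDD4-2 (Nedd4l). The data here are transcript levels, and neither protein nor phosphorylation was measured.

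Slc12a3 was lower in every KI/+ kidney than in any +/+ kidney, and Klhl3 moved by a similar amount. Lower values past the threshold were also found for Wnk1, Wnk4, Stk39 and Tmem52b, while Oxsr1, Cul3 and Nedd4l lay close to their +/+ level and Sgk1 varied widely among KI/+ mice. In a limma fit across all tested genes with Benjamini-Hochberg adjustment, 6 of the 10 genes were lower in KI/+ kidneys and 0 were higher, and edgeR and DESeq2 on recovered reads also passed 6. At an unadjusted p under 0.05, 6 were lower and 1, Sgk1, was higher. Among all 13197 tested genes, 3.69% passed in either direction and 2.02% passed as lower. The median log2 fold change was -0.41 over the 10 genes and 0.00 over all tested genes, and the genes were picked with earlier results of these data known.

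Promoter windows of 300 bases around annotated transcription starts are shown for the genes with the largest separation between genotypes, Slc12a3 and Klhl3, and for 1 of the 6 annotated windows of Sgk1, the gene that varied most among mice. The sequences are from RefSeq on GRCm38.p6 and are written along the strand of the gene. Slc12a3 is at chr8:94328958-94329257 on the plus strand, Klhl3 at chr13:58113598-58113897 on the minus strand, and the Sgk1 window at chr10:21993640-21993939 on the plus strand. Capitals mark matches to 3 motifs searched on both strands, the TATA box TATAAA, the E-box CACGTG and the glucocorticoid response element, whose arms AGAACA and TGTTCT are 3 bases apart, which do not overlap each other here.
Slc12a3: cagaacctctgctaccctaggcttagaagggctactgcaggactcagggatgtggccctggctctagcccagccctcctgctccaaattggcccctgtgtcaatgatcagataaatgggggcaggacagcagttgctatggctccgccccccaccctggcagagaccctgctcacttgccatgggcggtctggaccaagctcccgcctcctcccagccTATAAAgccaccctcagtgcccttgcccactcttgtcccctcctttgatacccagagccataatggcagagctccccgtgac
Klhl3: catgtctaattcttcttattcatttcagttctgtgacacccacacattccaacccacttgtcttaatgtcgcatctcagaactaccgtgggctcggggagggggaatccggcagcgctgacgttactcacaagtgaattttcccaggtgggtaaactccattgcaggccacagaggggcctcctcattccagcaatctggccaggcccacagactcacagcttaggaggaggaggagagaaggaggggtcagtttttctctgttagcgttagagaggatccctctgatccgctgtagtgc
Sgk1: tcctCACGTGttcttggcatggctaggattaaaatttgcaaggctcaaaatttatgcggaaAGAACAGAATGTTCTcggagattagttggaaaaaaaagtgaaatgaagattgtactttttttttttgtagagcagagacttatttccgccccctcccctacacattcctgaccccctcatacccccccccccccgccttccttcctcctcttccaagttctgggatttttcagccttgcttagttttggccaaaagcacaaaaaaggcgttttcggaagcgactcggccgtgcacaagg
The Slc12a3 window holds a TATA box at bases 219 to 224, and the Klhl3 window holds none of the 3 motifs. The Sgk1 window holds the E-box at bases 5 to 10 and the response element at bases 62 to 76. Of 32851 windows of the same length, 13.6% held the TATA box, 7.15% held the E-box and 3 held the response element. Among the 14 windows of the 9 genes matched, the E-box and the response element were found in this Sgk1 window alone. Other Sgk1 windows, starting at chr10:21991973 and chr10:21994416, held a TATA box, at bases 223 to 228 and 240 to 245. A match of letters is a description of the sequence and was not tested as a binding site.

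The cotransporter itself came first in abundance after Wnk1. Normalized counts of Slc12a3 in +/+ mice 1 to 5 were 2920.2, 2559, 2973, 2593 and 2445, and in KI/+ mice 1 to 5 they were 1247, 1283, 1160.2, 1261 and 942. The lowest +/+ kidney was thus well above the highest KI/+ kidney, and 4 of the KI/+ values were close together with KI/+ mouse 5 below them. The mean was 2698 ± 234 (SD, n = 5) in +/+ and 1179 ± 140 (SD, n = 5) in KI/+ kidneys, or 43.7% of the +/+ mean. The log2 fold change, here and below on the log2(normalized count + 1) scale, was -1.20 (SE 0.094, 95% interval -1.40 to -1.0, limma adjusted p = 2.61e-07). The two-sided exact permutation test of this gene gave p = 0.00794, the smallest that 5 against 5 mice allow. In whole kidney, fewer cells of a type and less RNA per cell cannot be told apart.

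**Figure D1:**
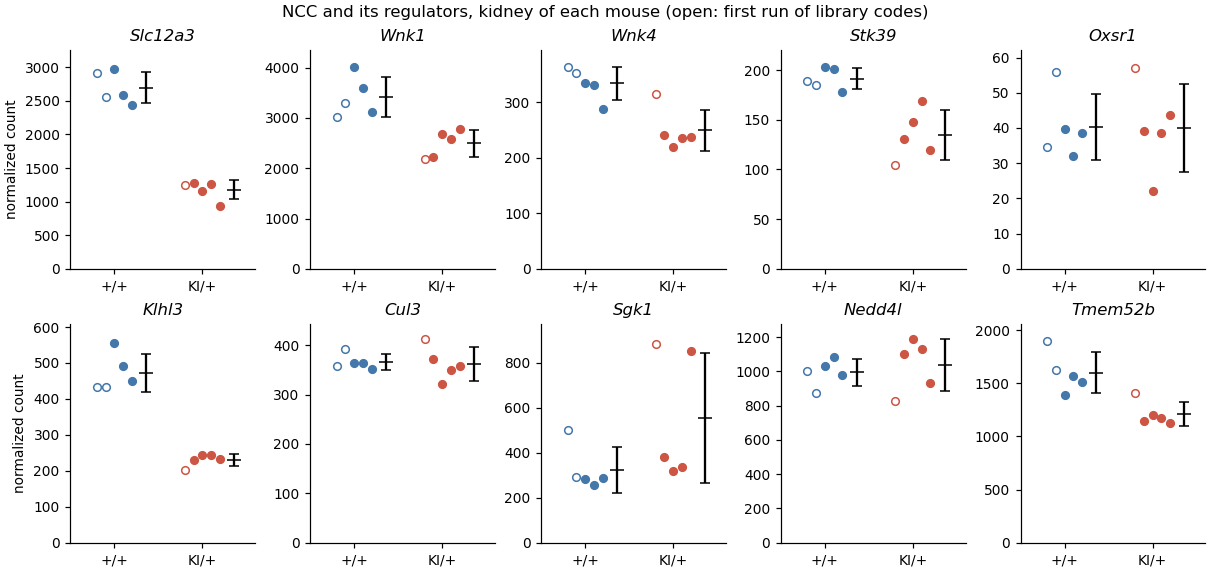
Normalized count of each gene (y axis, linear from 0) in each mouse, with +/+ in blue and KI/+ in red, open points for the first run of library codes, and black marks for mean ± SD of 5 mice. For Slc12a3, +/+ values run from 2445 to 2973 and KI/+ values from 942 to 1283, and for Sgk1 KI/+ mice 1 and 5 stand at 886 and 851.

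Slc12a1 encodes NKCC2, the related cotransporter of the thick ascending limb and the target of loop diuretics. Its normalized counts ran from 5678 to 7328 in +/+ and from 3755 to 6495 in KI/+ kidneys, a log2 difference of -0.22 (limma adjusted p = 0.438). Taken within each mouse, log2(normalized count + 1) of Slc12a3 minus that of Slc12a1 was -1.23 ± 0.081 (SD, n = 5) in +/+ and -2.22 ± 0.18 (SD, n = 5) in KI/+ kidneys. The genotypes did not overlap in this within-mouse difference, which was lower by 0.98 in KI/+ (difference -0.98, two-sided exact permutation p = 0.00794, adjusted over 5 such pairs 0.0198). Of the 6 other SLC12 cotransporter genes tested, 0 passed in limma, edgeR or DESeq2, and 1 had an unadjusted p under 0.05.

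Of the 5 kinase genes 3 (Wnk1, Wnk4 and Stk39) were lower, by smaller amounts than Slc12a3. Wnk1, which encodes a chloride-sensing kinase and, from a separate start, a kidney-specific short form abundant in the distal convoluted tubule, had normalized counts of 3021, 3305, 4014, 3589.9 and 3125 in +/+ mice 1 to 5. Its values in KI/+ mice 1 to 5 were 2183, 2230.0, 2690.3, 2585 and 2786. The genotypes did not overlap, but the gap between the lowest +/+ and the highest KI/+ kidney was narrow. Its log2 fold change was -0.45 (SE 0.096, limma adjusted p = 0.0103), a mean of 73.1% of that in +/+ kidneys. Reads at the shared 3′ end cannot separate the 2 forms of Wnk1.

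Wnk4 encodes the other WNK kinase with a major part in NCC control. Its normalized counts were 364, 353, 335, 330.2 and 287 in +/+ mice 1 to 5 and 314, 241, 219.6, 235 and 237 in KI/+ mice 1 to 5. KI/+ mouse 1 stood apart from the other KI/+ mice and inside the +/+ range, so that the genotypes overlapped. The log2 fold change of Wnk4 was -0.43 (SE 0.11, limma adjusted p = 0.0354). This call rested on the full set of mice: it passed in 2 of 10 fits with 1 mouse left out, those without +/+ mouse 5 and without KI/+ mouse 1, and without any of the other mice (+/+ 1 to 4 and KI/+ 2 to 5) the adjusted p lay between 0.0639 and 0.0816. Wnk4 minus Wnk1 within a mouse differed by 0.02 between genotypes (two-sided exact permutation p = 0.913 over 10 mice), with values from -3.58 to -3.05 in +/+ and from -3.61 to -2.79 in KI/+.

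Stk39 encodes SPAK, the kinase that phosphorylates NCC directly. Its normalized counts were 189, 185, 203, 202 and 178 in +/+ mice 1 to 5 and 104, 131, 148, 169 and 119.7 in KI/+ mice 1 to 5. The +/+ mice lay close together, the KI/+ mice spread over a wider range below them, and the genotypes did not overlap. The log2 fold change of Stk39 was -0.52 (SE 0.13, limma adjusted p = 0.0245), and the adjusted p rose to 0.0585 without +/+ mouse 3, 0.0732 without +/+ mouse 4, 0.0700 without KI/+ mouse 1 and 0.0514 without KI/+ mouse 5. Oxsr1, which encodes the related kinase OSR1, was the least abundant of the 10 genes, with 21 to 63 recovered reads per library. Its normalized counts were 32.2 to 56.0 in +/+ and 22.1 to 56.9 in KI/+ kidneys, and its log2 fold change of -0.04 had a 95% interval from -0.52 to 0.44 (limma adjusted p = 0.963). A change of Oxsr1 as large as that of Stk39 lies just outside that interval, and Stk39 minus Oxsr1 within a mouse differed by -0.49 between genotypes, which did not pass (two-sided exact permutation p = 0.222).

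Among the ubiquitin ligase parts, Klhl3 was set apart from its partner. Klhl3 had normalized counts of 433, 433, 557, 492 and 451 in +/+ mice 1 to 5 and of 203, 230.4, 243, 244 and 233 in KI/+ mice 1 to 5. Every KI/+ kidney was below every +/+ kidney, and the KI/+ values spread less than the +/+ values. The mean of Klhl3 was 473 ± 52.7 (SD, n = 5) in +/+ and 231 ± 16.6 (SD, n = 5) in KI/+ kidneys, with a log2 fold change of -1.03 (SE 0.097, limma adjusted p = 3.07e-06).

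Cul3, the scaffold on which KLHL3 sits, ran from 351 to 393 normalized counts in +/+ and from 321 to 414 in KI/+ kidneys. Its log2 fold change was -0.02 with a 95% interval from -0.20 to 0.17 (limma adjusted p = 0.960). The difference of Klhl3 minus Cul3 within a mouse was 0.36 ± 0.18 (SD, n = 5) in +/+ and -0.65 ± 0.24 (SD, n = 5) in KI/+ kidneys on the log2 scale, with no overlap. It differed by -1.01 between genotypes (two-sided exact permutation p = 0.00794, adjusted over 5 pairs 0.0198). Nedd4l, which encodes a ligase for NCC and for the epithelial sodium channel, ran from 876 to 1085 normalized counts in +/+ and from 825 to 1186 in KI/+ kidneys. Its log2 fold change was 0.05 with a 95% interval from -0.16 to 0.26 (limma adjusted p = 0.872).

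**Figure D2:**
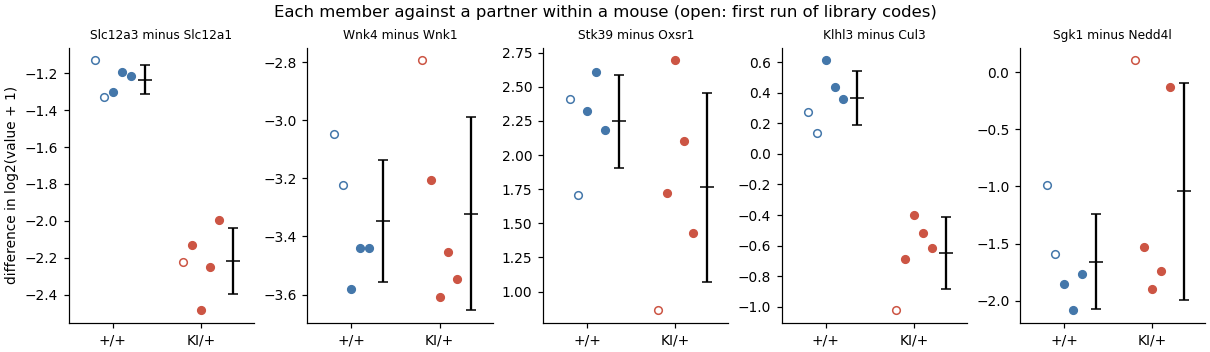
Difference in log2(normalized count + 1) between a gene and its partner within each mouse (y axis, a separate scale in each panel that does not start at 0), with +/+ in blue, KI/+ in red, open points for the first run of library codes and black marks for mean ± SD of 5 mice. The genotypes are apart for Slc12a3 minus Slc12a1 (-0.98) and Klhl3 minus Cul3 (-1.01) and overlap in the other 3 pairs.

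Sgk1, the kinase gene that answers quickly to aldosterone and glucocorticoids, was the most variable of the 10 genes. Its normalized counts were 504, 291, 284, 255 and 286 in +/+ mice 1 to 5 and 886, 381, 317, 337 and 851 in KI/+ mice 1 to 5. KI/+ mice 1 and 5 were far above every other mouse, +/+ mouse 1 was higher than the other 3 KI/+ mice, and the genotypes overlapped. The log2 fold change of 0.67 (SE 0.26, 95% interval 0.11 to 1.22) did not pass after adjustment (limma adjusted p = 0.211), nor did the exact permutation test of this gene (two-sided p = 0.151). With the run of library codes as a covariate the log2 fold change of Sgk1 was 0.81 and passed (limma adjusted p = 0.0445). Sgk1 minus Nedd4l within a mouse differed by 0.62 between genotypes, which did not pass either (two-sided exact permutation p = 0.238).

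Tsc22d3 and Fkbp5, which also respond to glucocorticoids, did not rank the KI/+ mice in the order of Sgk1. Tsc22d3, a glucocorticoid-induced leucine zipper gene, had normalized counts of 222 and 238 in KI/+ mice 1 and 5 within a KI/+ range of 187 to 266. Fkbp5, a chaperone gene induced by glucocorticoids, had 156 and 137 in these 2 mice, the lowest of the KI/+ group, whose highest value was 214. Among +/+ mice, mouse 1, the highest for Sgk1, was also the highest for Tsc22d3 (278) and Fkbp5 (247). The other +/+ mice had 174 to 203 for Tsc22d3 and 140 to 210 for Fkbp5. Dbp, an output gene of the circadian clock, had 14.2 and 15.6 normalized counts in KI/+ mice 1 and 5 against 85.1 to 98.5 in the other 3 KI/+ mice. Dbp was thus low in the KI/+ mice in which Sgk1 was high, and it was also low, at 17.3, in +/+ mouse 1, the +/+ mouse with the highest Sgk1. It was as low, at 16.0, in +/+ mouse 2, in which Sgk1 was not raised. Per1, a gene of the clock and the corticosteroid lists, did not set KI/+ mice 1 and 5 apart. It had 78.7 and 44.8 there, against 64.1 to 89.0 in the other 3 KI/+ mice. The part of the clock in the Sgk1 values was not tested.

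**Figure D3:**
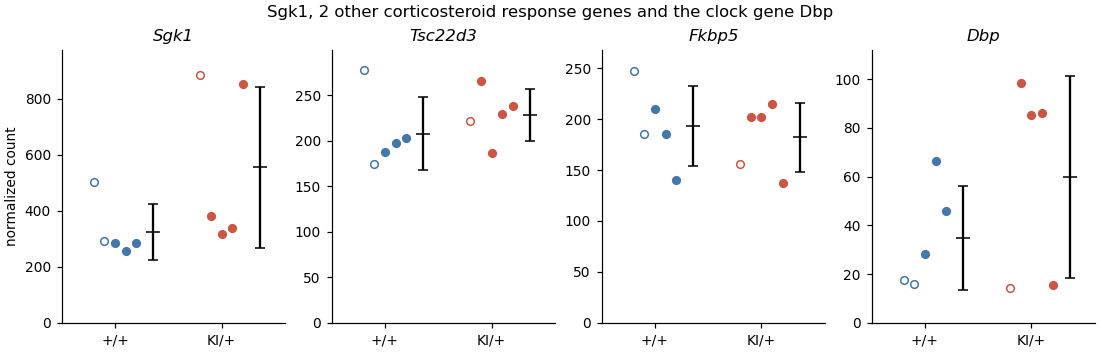
Normalized count (y axis, linear from 0) of Sgk1, Tsc22d3, Fkbp5 and Dbp in each mouse, with +/+ in blue, KI/+ in red, open points for the first run of library codes and black marks for mean ± SD of 5 mice. KI/+ mice 1 and 5, the highest for Sgk1 (886 and 851), are the lowest KI/+ mice for Dbp (14.2 and 15.6).

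Tmem52b encodes a small membrane protein whose transcript is enriched in the distal convoluted tubule. Its normalized counts were 1903, 1621, 1391, 1574 and 1516 in +/+ mice 1 to 5 and 1410.5, 1143, 1205, 1171 and 1125 in KI/+ mice 1 to 5. KI/+ mouse 1 lay just above the lowest +/+ mouse, and the remaining KI/+ mice lay below all +/+ mice. The log2 fold change of Tmem52b was -0.40 (SE 0.092, limma adjusted p = 0.0187), and the adjusted p was 0.0517 without KI/+ mouse 4.

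**Figure D4:**
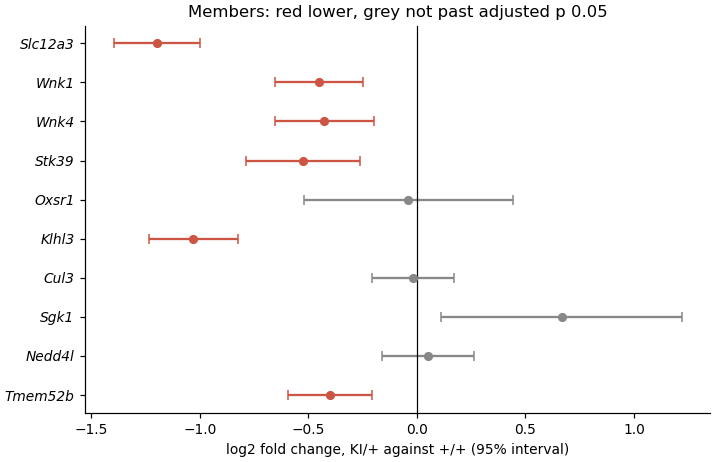
Log2 fold change of KI/+ against +/+ (x axis, log2(normalized count + 1) scale) for the 10 genes, with 95% intervals from the limma fit, red for genes lower at an adjusted p under 0.05 and grey for the rest. Slc12a3 (-1.20) and Klhl3 (-1.03) lie farthest to the left, and the grey intervals of Oxsr1, Cul3 and Nedd4l cross 0.

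The order of the mean levels changed with genotype, in part by narrow margins. In +/+ kidneys it ran, from high to low, Wnk1, Slc12a3, Tmem52b, Nedd4l, Klhl3, Cul3, Wnk4, Sgk1, Stk39 and Oxsr1, and among neighbours the ranges over mice overlapped between Cul3 and Wnk4 and between Wnk4 and Sgk1. In KI/+ kidneys Slc12a3 ranked 3, after Tmem52b, Sgk1 ranked 5, and Klhl3 ranked 8, after Wnk4. Slc12a3 (942 to 1283) and Tmem52b (1125 to 1410.5) overlapped there, with Slc12a3 the higher in KI/+ mice 2 and 4. Klhl3 (203 to 244) and Wnk4 (219.6 to 314) overlapped too, with Klhl3 the higher in KI/+ mice 3 and 4. Slc12a3, Wnk1, Stk39 and Klhl3 were the 4 genes whose values did not overlap between genotypes, against 5.001% of all tested genes. Across the 10 fits with 1 mouse left out, Slc12a3, Klhl3 and Wnk1 passed in all.

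The wider pathway was read from 5 lists of genes around NCC. Of 46 tested genes in these lists, 2 were higher and 0 were lower in KI/+ kidneys by limma, where 6 had an unadjusted p under 0.05 (5 higher and 1 lower), edgeR passed 1 and DESeq2 passed 3. The 2 that passed in limma are 4.35% of the 46, near the 3.69% of all tested genes. Among 8 other WNK, SPAK and SGK kinases and scaffolds, 0 passed in limma, edgeR or DESeq2 (Wnk2 and Sgk2, both higher, had an unadjusted p under 0.05), and the most abundant, the kinase gene Sgk2, ran from 1215 to 1686 normalized counts in +/+ and from 1510.2 to 1715 in KI/+ kidneys (log2 fold change 0.27, limma adjusted p = 0.129). Sgk2 passed as higher with the run of library codes as a covariate (log2 fold change 0.31, limma adjusted p = 0.0352), within the second run (0.37, adjusted p = 0.0411) and without +/+ mouse 1 (0.35, adjusted p = 0.0178). Among 9 phosphatase genes, which act on NCC or on its kinases, 0 passed in limma, edgeR or DESeq2 and 0 had an unadjusted p under 0.05, with Ppp1r1a, an inhibitor of protein phosphatase 1, the most abundant (log2 fold change -0.24, limma adjusted p = 0.501).

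Of 14 cullin-RING ligase and neddylation genes 1 passed, Usp2, which encodes a deubiquitinase that responds to aldosterone and to the clock. Usp2 had normalized counts of 1084, 749.7, 869, 877 and 827 in +/+ mice 1 to 5 and of 1113, 1263, 1154, 1217 and 1131 in KI/+ mice 1 to 5, so that the genotypes did not overlap. Its log2 fold change was 0.42 (SE 0.093, limma adjusted p = 0.0131, or 0.0501 without +/+ mouse 5). The most abundant of the rest, Nedd8, the ubiquitin-like modifier of cullins, differed by 0.09 on the log2 scale (limma adjusted p = 0.692).

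Of 9 corticosteroid receptor and response genes 1 passed, Hsd11b2, which encodes the enzyme that inactivates glucocorticoids in aldosterone target cells. Hsd11b2 ran from 633 to 863 normalized counts in +/+ and from 806 to 1196 in KI/+ kidneys, with a log2 fold change of 0.43 (SE 0.12, limma adjusted p = 0.0478). Its adjusted p was between 0.0914 and 0.149 when +/+ mouse 3, 4 or 5 or KI/+ mouse 1, 2 or 5 was left out. By DESeq2, Scnn1a, which encodes the alpha subunit of the epithelial sodium channel, also passed, as lower (log2 fold change -0.35, DESeq2 adjusted p = 0.0264, limma adjusted p = 0.0613, or 0.0481 with the run of library codes as a covariate and 0.0262 without KI/+ mouse 3). The most abundant gene of this list that did not pass, Ndrg2, an aldosterone-induced gene, differed by -0.08 on the log2 scale (limma adjusted p = 0.739), and the mineralocorticoid receptor gene Nr3c2 was close to the lower limit of the data, at 10.04 to 16.0 normalized counts in +/+ and 7.78 to 14.9 in KI/+ kidneys.

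Atp1b1, which encodes a subunit of the sodium pump and was the most abundant gene of basolateral transport that did not pass, had normalized counts of 30315 to 36489 in +/+ and 29932 to 35796 in KI/+ kidneys, so that the genotypes overlapped. Its log2 difference was -0.02 (limma adjusted p = 0.962).

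Markers of the distal convoluted tubule, the segment that holds NCC, were uneven. Of 12 tested markers 5 were lower in KI/+ kidneys and 0 were higher, and 12 of 12 log2 fold changes were below 0. Pvalb, the calcium-binding protein parvalbumin of the early segment, ran from 116 to 159.7 normalized counts in +/+ and from 11.7 to 17.7 in KI/+ kidneys (log2 fold change -3.06, limma adjusted p = 5.08e-09). Trpm6, the magnesium channel, ran from 62.3 to 109 in +/+ and from 14.7 to 26.0 in KI/+ (log2 fold change -1.84, limma adjusted p = 1.74e-05). Both fold changes were larger than that of Slc12a3, a difference that was not tested, whereas Egf, the epidermal growth factor gene (-1.04, limma adjusted p = 0.00207), and Sall3, a transcription factor gene (-1.03, limma adjusted p = 0.000458), had fold changes close to that of Klhl3. Emx1, another transcription factor gene, was lower by less (log2 fold change -0.63, limma adjusted p = 0.0183, or 0.0560 without +/+ mouse 3 and 0.0549 without +/+ mouse 4).

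All 5 markers that passed belong to the 7 that mark the early segment or the whole of it, where the summed level was 3191 to 4018 normalized counts in +/+ and 1018 to 2232 in KI/+ kidneys. Most of that sum was Egf, at 2569 to 3479 in +/+ and 782 to 1952 in KI/+, and without Egf it was 519 to 623 in +/+ and 235 to 292 in KI/+. The 5 markers of the late segment and connecting tubule, Calb1, Trpv5, S100g, Slc8a1 and Klk1, which handle calcium or are secreted there, had 0 genes past the threshold in limma, edgeR or DESeq2, and 1, Slc8a1, had an unadjusted p under 0.05 and passed as lower without KI/+ mouse 5 (log2 fold change -0.43, limma adjusted p = 0.0265). Their summed level was 20846 to 29077 in +/+ and 20452 to 28973 in KI/+ kidneys, their median log2 fold change was -0.15 against -1.03 in the early list, and none was at 0. S100g, the most abundant, differed by -0.13 on the log2 scale (limma adjusted p = 0.740). The 5 early markers that passed were thus lower together with Slc12a3, while Cnnm2 and Erbb4 did not pass (limma adjusted p = 0.314 and 0.285), and the part of the number or identity of early distal convoluted tubule cells in the lower Slc12a3 was not tested.

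**Figure D5:**
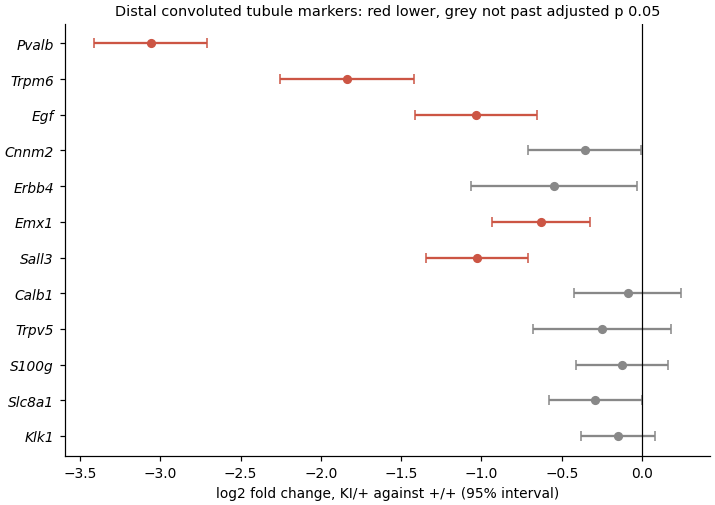
Log2 fold change of KI/+ against +/+ (x axis, log2(normalized count + 1) scale) with 95% limma intervals for 12 distal convoluted tubule markers, red where lower at an adjusted p under 0.05 and grey otherwise. Pvalb (-3.06) and Trpm6 (-1.84) lie farthest left, and the late markers from Calb1 to Klk1 are all grey.

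Genes whose course over the 10 mice lay closest to that of Slc12a3 were sought among 9135 genes averaging 50 or more normalized counts. The measure was the root mean square distance between log2 profiles, each centred on its +/+ mean but not scaled. A gene with a fold change unlike that of Slc12a3 is therefore far from it by construction. Among the nearest were Mfsd4a (0.145), Sall3 (0.173), Sv2a (0.186), Klhl3 (0.209), Casr (0.222), Slc5a2 (0.224) and 1110019B22Rik (0.225), where the median distance of all genes was 0.883 and a smaller value is a closer course. Klhl3 thus ranked 4, Egf ranked 22, and Stk39, Wnk4, Wnk1 and Tmem52b ranked 136, 211, 222 and 242. Casr encodes the calcium-sensing receptor. Slc5a2 encodes a glucose transporter of the proximal tubule, so that the nearest courses were not those of distal convoluted tubule genes alone.

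Markers of other cell types also differed between genotypes. Of 6 thick ascending limb markers, 3 were lower (Umod, Ptger3 and Kcnj1), 1 was higher (Cldn16) and 2 did not pass. The summed level of the 6 was 28851 to 37717 normalized counts in +/+ and 13287 to 21769 in KI/+ kidneys. Most of that sum was Umod, at 20405 to 28356 in +/+ and 7760 to 13505 in KI/+. Kcnj1, the potassium channel ROMK, which is also found in the distal nephron, fell by 0.80 on the log2 scale (limma adjusted p = 0.0156, but 0.0904 without the trend and 0.0629 within the second run of library codes), and Umod, uromodulin, had a fold change of -1.0 on that scale (limma adjusted p = 0.000198). Of 6 proximal tubule markers 2 were lower (Slc5a2 and Slc5a12) and 2 were higher (Slc22a6 and Slc13a3), with summed levels of 42279 to 47644 in +/+ and 46046 to 55411 in KI/+.

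Of 6 intercalated cell markers 3 were lower (Atp6v0d2, Slc4a1 and Aqp6). The summed level of all 6 was 1567 to 1699 in +/+ and 1193 to 1388 in KI/+. Atp6v0d2 did not pass without +/+ mouse 4 (limma adjusted p = 0.0573), +/+ mouse 5 (0.0780), KI/+ mouse 2 (0.0525) or KI/+ mouse 4 (0.0522). Of 6 principal cell markers 1 was higher, the vasopressin receptor gene Avpr2, with summed levels of 1224 to 1441 in +/+ and 1594 to 2634 in KI/+. All 6 of their log2 fold changes were above 0, 4 had an unadjusted p under 0.05, edgeR passed 1, and DESeq2 passed 4, adding the water channel genes Aqp2 and Aqp3 and the sodium channel subunit gene Scnn1g (DESeq2 adjusted p = 0.0287, 0.0239 and 0.0443). Aqp3 and Scnn1g also passed with the run of library codes as a covariate (limma adjusted p = 0.0317 and 0.0301). Of 4 podocyte, 5 endothelial and 4 leukocyte markers 0 passed in limma, edgeR or DESeq2 (1, 2 and 2 had an unadjusted p under 0.05), with summed levels in KI/+ kidneys of 695 to 890.1, 1452 to 2095 and 1152 to 2133 against 737 to 921, 2003 to 2270.3 and 1018 to 1776 in +/+. The endothelial marker Kdr passed as lower with the run of library codes as a covariate (log2 fold change -0.45, limma adjusted p = 0.0406) and without KI/+ mouse 3 (-0.51, adjusted p = 0.0228). The part of these cell types in the values of the 10 genes was not tested.

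The libraries were alike in depth, with 6501552 to 7856363 recovered reads in +/+ and 6872310 to 7996087 in KI/+ kidneys, and transcripts of the mitochondrial genome took 24.5% to 30.1% and 23.9% to 27.1% of them. Library codes fell into 2 runs of numbers, the first with 2 +/+ mice and 1 KI/+ mouse and the second with 3 +/+ mice and 4 KI/+ mice, whose meaning is not given in the sources used here. Within the second run the log2 fold changes were -1.21 for Slc12a3 and -1.07 for Klhl3 (limma adjusted p = 7.35e-05 and 0.000103), while Stk39 (-0.46, adjusted p = 0.112) and Wnk4 (-0.44, adjusted p = 0.0502) did not pass. The first run holds too few mice for values of its own. Rragc, whose edit changes the coding sequence, ran from 244 to 347 normalized counts in +/+ and from 189 to 248 in KI/+ kidneys (log2 fold change -0.40, limma adjusted p = 0.0678), and 3′ counts cannot show the edited codon. The Y-linked gene Ddx3y had 317 to 478 normalized counts over the 10 libraries, so each came from a mouse with a Y chromosome. The labels do not give the sex of the mice.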

How the data were processed

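RNA of whole kidneys was analysed, with 1 library per mouse, 5 +/+ and 5 KI/+, genotypes taken from the sample labels. Replicates are separate mice. The authors prepared QuantSeq 3′ libraries, aligned reads with TopHat2 2.0.10, Bowtie 1.0.0 and SAMtools 0.1.19 (versions from the submitters' processing notes) to GRCm39, counted reads by strand with HTSeq 0.6.1, and deposited a normalized signal per gene, that is, counts scaled by size factors. The lowest mean was 5.64, and 0 value columns were unmatched. Multiplied by the size factor (0.8818 to 1.124), 100% of values were whole reads within 0.01 reads.

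Values were tested as log2(value + 1) with limma 3.58.1 in R 4.3.3 (eBayes with trend, two-sided) in genes with at least 10 in at least 5 mice, and called at an adjusted p under 0.05. Pairs of genes were compared within mice by exact permutation (scipy 1.17.1). edgeR 4.0.16 and DESeq2 1.42.0 on recovered reads were alternatives, with pseudocounts 0.5 and 5, no filter, a mean of at least 50, TMM, no trend, robust variances, library-code runs and each mouse left out. The fits were tested on simulated data.

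The 10 genes, lists and rules, and the split of markers into early and late, were chosen with earlier results of these data known. Named were the 10 genes, list genes that passed, the most abundant of each list that did not, the 8 profiles nearest Slc12a3, and Rragc. Some genes covered by this rule are not reported here. Nr3c2, Tsc22d3, Fkbp5, Dbp, Per1, Slc8a1, Cnnm2, Erbb4, Aqp3, Scnn1g, Wnk2 and Scnn1a were named after their values were seen. Further lists were clock genes (12 tested, 0 passed in limma, edgeR or DESeq2, 3 with an unadjusted p under 0.05, most abundant Tef, log2 fold change 0.43, adjusted p = 0.119, or 0.00664 without KI/+ mouse 5) and sex-linked genes (4 tested, 0 passed in any, 1 with an unadjusted p under 0.05). Promoter windows are from GRCm38.p6, a build other than that of the values, for 9 of the 10 genes, and that of Nedd4l was not analysed here.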

Additional observations from a re-analysis of the deposited data

Results flagged for a closer look

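Of 100 groups of 5 mice tested (50 genes in each genotype), 7 held a mouse whose distance from the nearest other mouse was more than 0.71 of the whole range, Dixon's 95% critical value, which chance gives in about 1 of 20 groups. Among the 10 genes of the NCC pathway it was 3 of 20 groups.

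In KI/+ mouse 1, Wnk4 stood at 314 normalized counts against 219.6 to 241 in the other KI/+ mice. In the same mouse Tmem52b stood at 1410.5 against 1125 to 1205. Both values lie on the +/+ side of their group, while Slc12a3 and Klhl3 of this mouse, at 1247 and 203, do not. In +/+ mouse 1, Sgk1 stood at 504 against 255 to 291 in the other +/+ mice, and its relative Sgk2 at 1686 against 1215 to 1331.

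In KI/+ mouse 5, the phosphatase inhibitor gene Ppp1r1a was at 875 against 1596 to 1763 in the other KI/+ mice, and Umod was at 7760.0 against 11868 to 13505. Aqp6 was at 244 in +/+ mouse 4 against 314 to 332 in the other +/+ mice.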

How the results depend on the processing

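Slc12a3 and Klhl3 kept their direction and their call in all 21 alternatives. Limma without the trend called 291 genes (2.21%) in place of 487 and 2 of the 10 pathway genes in place of 6, losing Wnk1, Wnk4, Stk39 and Tmem52b (adjusted p 0.0656 to 0.0986), and the run of library codes as a covariate called 832 genes (6.30%). Leaving out 1 mouse called 2.24% to 3.53% of tested genes (310 without +/+ mouse 4 and 295 without +/+ mouse 5) and 4 to 6 of the 10 pathway genes. Within the second run of library codes the pair differences were -0.98 for Slc12a3 minus Slc12a1 and -1.02 for Klhl3 minus Cul3, with adjusted p = 0.0714 each, where 3 against 4 mice cannot give an exact permutation p under 0.0286. Values close to 0 changed sign without passing: with the covariate, Oxsr1 was 0.048, Cul3 0.010 and Atp1b1 0.011, and Atp1b1 was 0.043 within the second run. With 1 mouse left out the log2 fold changes ran from -0.18 to 0.15 for Oxsr1, -0.065 to 0.027 for Cul3, -0.0020 to 0.13 for Nedd4l and -0.056 to 0.021 for Atp1b1, and the difference of Wnk4 minus Wnk1 from -0.11 to 0.10. DESeq2 on recovered reads passed Rragc (adjusted p = 0.0312). Hsd11b2 did not pass with a mean of at least 50, TMM, no trend or edgeR (adjusted p 0.0506 to 0.157), nor Usp2 without the trend (0.0751). Alternatives moved the median of all genes by less than 0.1. Low read numbers limit Oxsr1.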
